A study of Drosophila melanogaster with 2 samples.

Results

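The integrin adhesion complex genes are 10 genes that code for the core of the machinery that ties cells to the extracellular matrix. They are the integrin subunit genes mys, mew and if, the talin and kindlin genes rhea, Fit1 and Fit2, the Ilk, stck and parvin genes, and the vinculin gene Vinc. They are 10 of the 13968 protein-coding genes on the main chromosome arms. The set was chosen by the measured peak signal at the Fit2 promoter, which is among the strongest of all promoter peaks. The other members were listed for their place in the same complex. The standing of Fit2 is therefore given as a description, and no test was run on the set. A peak belonged to a gene when its summit, the highest point of the peak, lay within 500 bp of any annotated transcription start site (TSS) of that gene.

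The data are ChIP-seq peak lists for nerfin-2, a zinc finger protein, tagged with eGFP and pulled down with an anti-GFP antibody. The chromatin came from whole Drosophila melanogaster embryos of the transgenic strain nerfin-2-GFP, with an insertion that targets nerfin-2. Their age is given as 8 to 24 h in the source name of both samples, and the separate age label holds a number of hours too large for an embryo, so it was not used. There is 1 group with 2 biological replicates, and no untagged or input lists were analysed here. The regulatory DNA that drives the tagged gene was not given in the sources used here. Because whole embryos were pooled, strong binding in few cells and weak binding in many cannot be told apart.

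Integrins are receptors made of an alpha and a beta subunit that span the cell membrane and bind matrix proteins such as laminin outside the cell. Inside the cell, talin and kindlin bind the tail of the beta subunit and switch the receptor to its active form. The kinase-like protein Ilk forms a complex with PINCH and parvin, and together with talin and vinculin it links the receptor to actin filaments. In fly embryos integrins and talin hold muscles to their attachment sites, and embryos that lack the beta subunit or talin lose that hold.

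The sequences under the 6 summits called in the conservative list, and under the strongest stck summit that was not called, are shown because they carry the letters searched for below. They were read from the Release 6 genome of RefSeq (build dm6), on the strand of the gene and 5′ to 3′, and run at most 30 bases past a TSS. Fit2 (chr3L:17024186-17024357, + strand), rhea (chr3L:8544814-8545014, + strand) and mys (chrX:8061444-8061644, + strand) are shown from 100 bp before the summit. Fit1 (chr3L:4103470-4103570, + strand), Ilk (chr3L:21216840-21216930, + strand), Vinc (chrX:2222648-2222748, − strand) and stck (chr3R:8356884-8356984, + strand) are shown from 50 bp before it. Capitals mark the DNA replication-related element (DRE), TATCGATA, its core ATCGAT, and GGTCACAC or its reverse complement GTGTGACC, the core of the M1BP motif.
Fit2: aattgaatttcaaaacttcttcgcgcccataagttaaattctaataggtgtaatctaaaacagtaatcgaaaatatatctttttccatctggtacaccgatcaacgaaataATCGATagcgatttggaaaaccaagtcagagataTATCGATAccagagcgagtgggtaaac
rhea: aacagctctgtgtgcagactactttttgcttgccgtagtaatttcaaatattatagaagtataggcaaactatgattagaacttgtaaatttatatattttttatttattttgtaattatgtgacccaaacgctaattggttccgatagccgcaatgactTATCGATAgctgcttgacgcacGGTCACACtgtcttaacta
mys: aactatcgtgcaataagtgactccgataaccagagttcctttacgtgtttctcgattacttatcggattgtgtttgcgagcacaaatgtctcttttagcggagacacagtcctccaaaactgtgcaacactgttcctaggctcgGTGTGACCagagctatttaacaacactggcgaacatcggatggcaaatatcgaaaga
Fit1: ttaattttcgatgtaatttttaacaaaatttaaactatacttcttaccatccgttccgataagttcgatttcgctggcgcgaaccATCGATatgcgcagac
Ilk: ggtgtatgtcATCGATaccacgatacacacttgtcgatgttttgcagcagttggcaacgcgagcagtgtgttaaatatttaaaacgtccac
Vinc: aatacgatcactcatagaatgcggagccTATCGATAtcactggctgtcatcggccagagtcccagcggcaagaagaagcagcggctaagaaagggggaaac
stck: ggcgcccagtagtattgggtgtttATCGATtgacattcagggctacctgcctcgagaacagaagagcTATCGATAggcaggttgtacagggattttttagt

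The conservative list, made by the authors from both replicates together, had a summit within 500 bp of a TSS for 6 of the 10 genes. They were mys, rhea, Fit1, Fit2, Ilk and Vinc. Across the genome, 2709 of the 11817 protein-coding genes with a ranked call at a TSS had such a peak, which is 22.9% (95% Wilson interval 22.2 to 23.7, counting error over genes only). The second list across replicates called 5 of the 10 genes, against 24.8% of all such genes. The list of replicate 1 called 4 of 10, against 21.6%, and that of replicate 2 called 4 of 10, against 16.7%. Since the choice of Fit2 put at least that gene among the called ones, nothing is read from these shares beyond the counts. All 10 genes had a ranked call at a TSS in each of the 4 ranked lists, so none was lost for want of a value.

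A call in these lists means that a peak passed the irreproducible discovery rate (IDR), a measure of how far a peak keeps its place in the order when sets of calls are compared. The authors' score rises as the IDR falls and is capped at 1000, and the lowest score in each thresholded list was 830. The signal is the peak caller's own value per peak, and it has no replicate error in the lists made from both replicates. Its level is compared within a list, and between lists only where the replicates are set side by side. The conservative list had 2793 peaks on the main arms, of which 2151 were promoter peaks with a median signal of 134. The lists of replicates 1 and 2 had 2554 and 1737 peaks, and their promoter peaks had median signals of 80.9 and 78.4. Read depth is unknown from the lists.

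**Figure D1:**
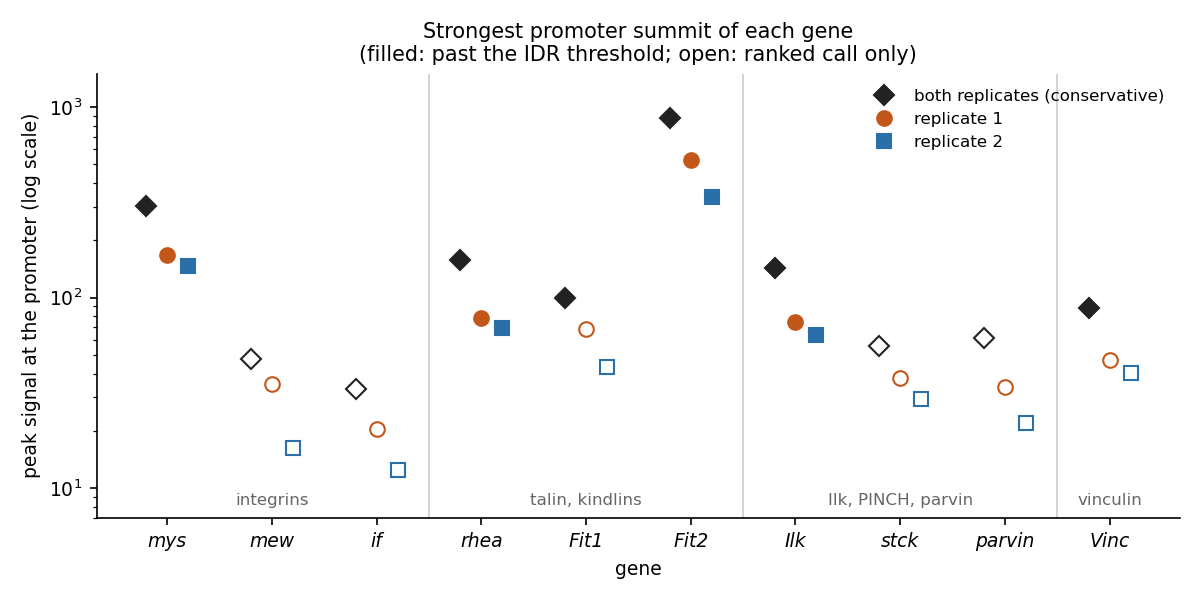
Peak signal (log scale, the peak caller's value) at the promoter of each of the 10 genes in the conservative list (diamonds), replicate 1 (circles) and replicate 2 (squares). Filled symbols passed the IDR threshold and open ones are ranked calls only. Fit2 stands apart at 872, mys follows at 304, and if is lowest at 33.3.

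Among the integrin subunit genes, mys had a peak and the alpha subunit genes mew and if had none. The gene mys (FBgn0004657, chrX:8061645-8070237, + strand) codes for the beta subunit that pairs with the alpha subunits of mew and if. Its signal was 304 in the conservative list, 167 in replicate 1 and 146 in replicate 2, above the median promoter peak in each list. It was called in all 4 thresholded lists, with an IDR of 4.28e-05 in the conservative one, and stood at position 233 among the 2151 promoter peaks. The peak was narrow in the conservative list, 211 bp against the commonest width of 400 bp. It was 123 bp wide in replicate 1, and in replicate 2 it had the commonest width of that list, 350 bp. The conservative summit lay 101 bp upstream of the only TSS of mys. That summit was also 108 bp from a TSS of fs(1)h, a bromodomain protein gene that runs the other way, so the peak cannot be given to 1 of the 2 genes.

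The gene mew (FBgn0004456, chrX:13214409-13258490, − strand), which codes for the alpha subunit of the laminin-binding receptor, had a signal of 47.8 in the conservative ranked list, 35.2 in replicate 1 and 16.3 in replicate 2. In the replicates its strongest ranked summits lay 1520 bp apart and at different TSSs. The gene if (FBgn0001250, chrX:16752189-16783434, − strand) codes for the alpha subunit of the receptor found in muscle. Its signals were 33.3, 20.4 and 12.5 in the same lists. None of these ranked calls of mew and if passed the threshold, and if had the lowest signal of the 10 genes in all 3. By strongest ranked call, mew stood at position 5568 and if at 8084 among the 11817 genes.

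All the talin and kindlin genes were called in the conservative list, with very different signals. Fit2 (FBgn0036688, chr3L:17024328-17027117, + strand), a kindlin gene with a single exon, had a signal of 872 in the conservative list, 526 in replicate 1 and 337 in replicate 2. It was the fourth strongest of the 2151 promoter peaks and stood at position 5 of all 2793 peaks, at position 5 of 2554 in replicate 1 and at position 6 of 1737 in replicate 2. These are the values that chose it. The conservative peak spanned chr3L:17024141-17024431, so it was narrower than most, 291 bp against the commonest width of 400 bp. Of all conservative peaks, 10.1% were narrower than 400 bp. The peaks of MESK2, Rpn6, milt and Capr, nearest to Fit2 in signal, were among them, so the width is not particular to Fit2. Its IDR was at the floor of 1e-05 in each of the 4 lists. The summit lay 42 bp upstream of the only TSS in the conservative list, 38 bp upstream in replicate 1 and 49 bp upstream in replicate 2. No other protein-coding gene had a TSS within 500 bp of it.

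Fit1 (FBgn0035498, chr3L:4103564-4107116, + strand), the other kindlin gene, had a signal of 99.1 in the conservative list, under the median promoter peak, and of 68.5 in replicate 1 and 43.5 in replicate 2. Its call rests on the conservative list alone. The same peak, with the same signal, had a score of 1000 there and of 616 in the second list (IDR 0.0327), and the scores in the replicates were 648 and 32. Of all 2709 genes called in the conservative list, 112 were likewise called in none of the other lists, which is 4.13%. The summit lay 44 bp upstream of the TSS of Fit1 and 264 bp from a TSS of CG14995. The talin gene rhea (FBgn0260442, chr3L:8545001-8574409, + strand) had a signal of 158 in the conservative list, 77.8 in replicate 1 and 69.4 in replicate 2. It was called in all 4 lists, at the first of its 4 TSSs and 87 bp upstream of it in the conservative list. The signal of rhea lay above the median promoter peak of the conservative list but under that of each replicate.

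**Figure D2:**
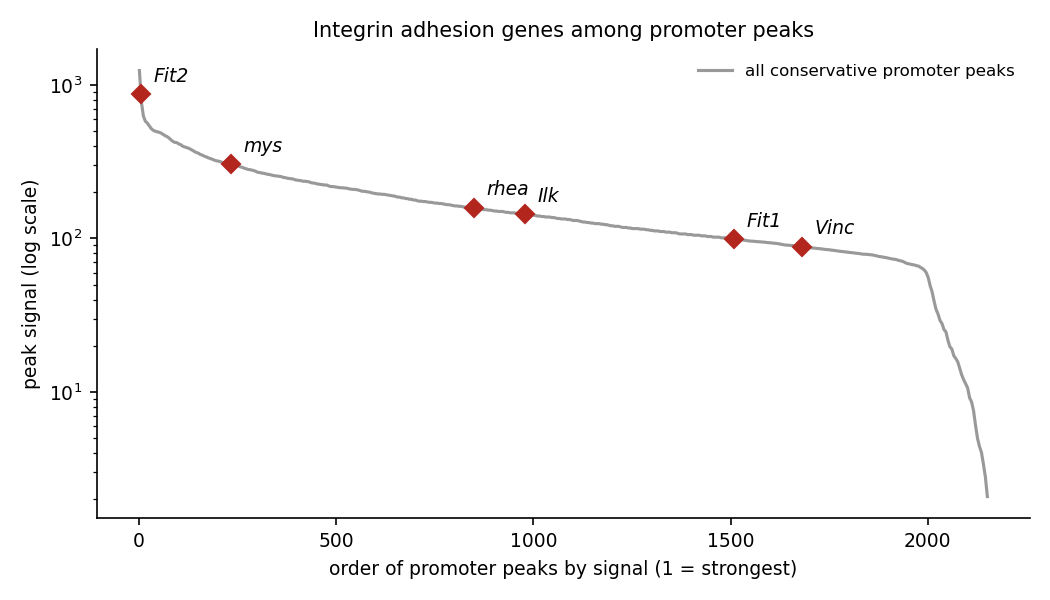
Signal of the 2151 conservative promoter peaks (log scale) against their order from strongest to weakest, with the 6 called genes marked. Fit2 is at position 4, mys at 233, rhea at 849, Ilk at 978, Fit1 at 1508 and Vinc at 1680.

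In the complex of Ilk, PINCH and parvin, only Ilk (FBgn0028427, chr3L:21216901-21219240, + strand) was called. It had a signal of 144 in the conservative list, 74.7 in replicate 1 and 64.1 in replicate 2, and passed the threshold in all 4 lists. In both replicates it lay a little under the median promoter peak of the list. The conservative summit was 11 bp upstream of the Ilk TSS and 51 bp from a TSS of Trmt112. Trmt112 is a tRNA methyltransferase cofactor gene on the other strand, and the 2 TSSs are 62 bp apart. In replicate 2 the summit lay 61 bp upstream of the Ilk TSS and so close to that of Trmt112. The peak thus cannot be given to 1 of the 2 genes. The adaptor gene stck (FBgn0020249, chr3R:8356978-8359964, + strand) codes for PINCH. Its signal was 56.1 in the conservative ranked list, 38.1 in replicate 1 and 29.5 in replicate 2. In the replicates its strongest ranked summits lay 672 bp apart and at different TSSs. The gene parvin (FBgn0052528, chrX:19746041-19748458, + strand) codes for the actin-binding partner, and its signals were 61.4, 33.9 and 22.0 in the same lists. Neither gene was called within 500 bp, but a thresholded peak lay 952 bp upstream of the stck TSS, at chr3R:8355826-8356225, with a signal of 99.6 and a score of 920.

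Vinc (FBgn0004397, chrX:2214347-2222567, − strand) codes for vinculin, an actin-binding protein that joins adhesions under tension. It had a signal of 88.3 in the conservative list, 47.1 in replicate 1 and 40.5 in replicate 2, and it was called in the conservative and second lists but in neither replicate. Its score was 803 in replicate 1, just under the threshold, and 329 in replicate 2. Of all genes called in the conservative list, 374 of 2709, or 13.8%, were called in neither replicate. Vinc was the called gene nearest the threshold, with a score of 987, and stck was the nearest gene outside it, with a score of 553 and an IDR of 0.0465.

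**Figure D3:**
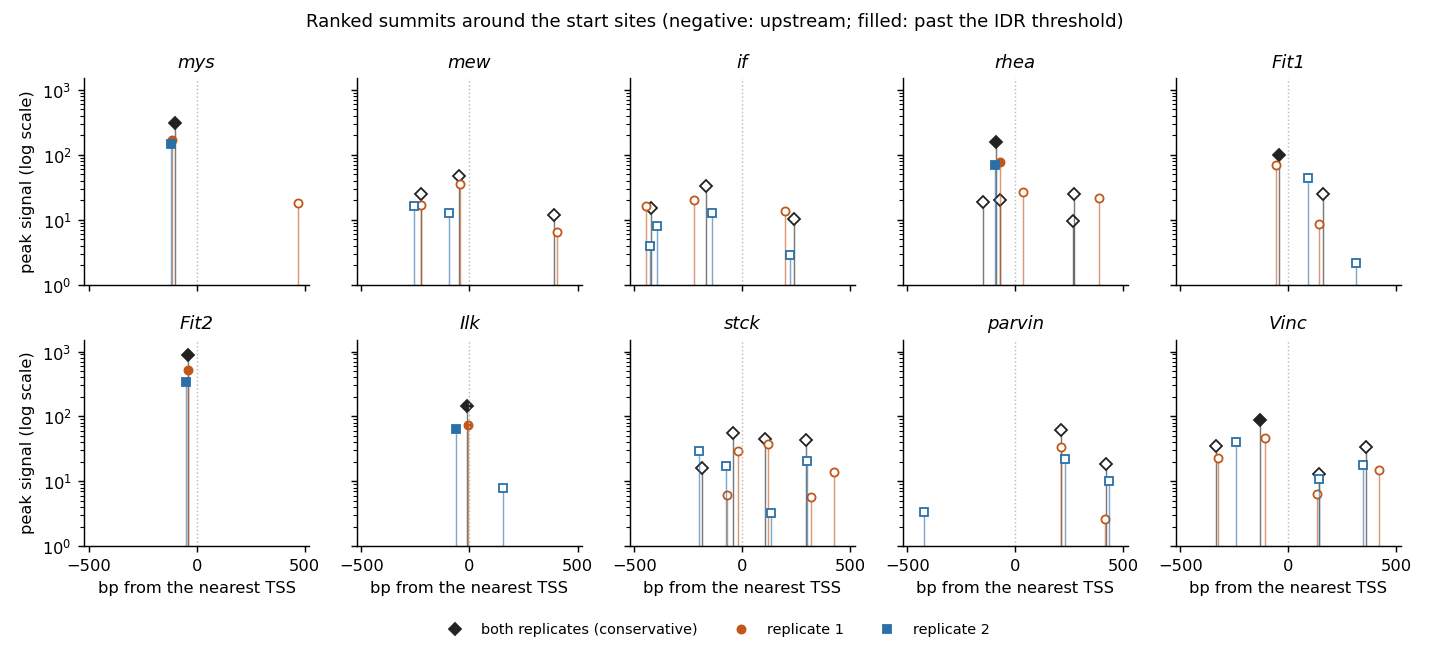
Signal (log scale) of every ranked summit within 500 bp of a TSS of each gene against its distance from the nearest TSS in bp, with negative values upstream in the direction of transcription. Diamonds are the list from both replicates, circles replicate 1 and squares replicate 2, and filled symbols passed the IDR threshold. The 6 called conservative summits lie between 11 and 131 bp upstream.

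The called summits of the 6 genes all lay upstream of the TSS, between 11 and 131 bp away. Across all conservative promoter peaks, 1528 of 2151 summits (71.0%) were upstream and the median distance was 53 bp. No thresholded conservative summit lay inside the body of any of the 10 genes away from the TSSs. The longest of the genes are mew at 44082 bp, if at 31246 bp and rhea at 29409 bp. Of the 2793 conservative peaks, 2151 were promoter peaks, and the share of all genes with a summit in the body was not computed. Nothing is therefore read from this absence. The called genes ranged from 2340 to 29409 bp in length and the others from 2418 to 44082 bp, so the ranges overlap. Of the 10 genes, 5 are on chromosome X, 4 on 3L and 1 on 3R.

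The replicates were compared at the 4 of the 6 called genes that were called in both, Fit2, mys, rhea and Ilk. Of all 2709 genes called in the conservative list, 1686, or 62.2%, were also called in both replicates. Fit2 averaged 431 ± 134 (SD, n = 2), mys 156 ± 14.8, rhea 73.6 ± 5.89 and Ilk 69.4 ± 7.55. The signal was not rescaled between the lists, so these SDs include any difference in scale between the replicates. The signal of replicate 1 was 1.56 times that of replicate 2 at Fit2, 1.14 times at mys, 1.12 times at rhea and 1.17 times at Ilk. Over all 1700 genes called in both replicates, in the conservative list or not, the median ratio was 1.23 and its quartiles 1.02 and 1.47. The ratio at Fit2 thus lay above the upper quartile, higher than that of 81.9% of these genes, while its place in the order of signals was nearly the same in both. Within each replicate the order was Fit2, mys, rhea and Ilk. The means of rhea and Ilk differed by less than the SD of either, although rhea was above Ilk in both replicates and in the conservative list. Summits moved between replicates by 11 bp at Fit2, 4 bp at mys, 25 bp at rhea and 52 bp at Ilk. Over all genes called in both replicates, the median was 17 bp and the upper quartile 40 bp. At Fit1 and Vinc, which were called in neither replicate, the strongest ranked summits moved by 151 and 136 bp. No median was computed for genes called in neither replicate, so these moves have no background.

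The 4 promoter peaks nearest to Fit2 in signal were those of MESK2 and Rpn6 above it, and milt and Capr below it. In the conservative list Fit2 had 872, against 1068 at MESK2, 925 at Rpn6, 819 at milt and 775 at Capr. Rpn6 codes for a proteasome lid subunit, milt for an adaptor of mitochondrial transport and Capr for an RNA-binding protein. In replicate 1 Fit2 had 526 and Rpn6 528, and milt was next below at 482. In replicate 2 Fit2 had 337 and milt 326, and Capr stood above both at 377. The order of Fit2 and its neighbours thus differed between the replicates.

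The sequence around the summits was not used to choose the genes. A match was counted only when all its letters lay inside the window. Within 50 bp of the summit, TATCGATA, the site of the promoter factor DREF and its own reverse complement, was found at 1 of the 6 called genes, Vinc. A TATCGATA at Fit2 that began 45 bases after the summit ran past the window edge and was not counted. By the same rule TATCGATA was found at 22.4% of all 2151 conservative promoter summits. The share was 0.922% of the 18332 ranked promoter summits outside conservative peaks. The core ATCGAT, which every TATCGATA also holds, was found at 4 of the 6 called genes, Fit1, Fit2, Ilk and Vinc. This compares with 45.6% of all conservative promoter summits and 4.51% of the ranked ones outside. Among the 100 strongest promoter summits, which include Fit2, 70 held the core and 33 the whole site. Counted from 1 at the 5′ end of TATCGATA, the core at Fit2 differed from the whole site by T1A, and those at Fit1 and Ilk by T1C.

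Within 100 bp of the summit, TATCGATA was found at 3 of the 6 called genes, against 28.9% of all conservative promoter summits. At Fit2 the core began 31 bp upstream of the TSS, 11 bases after the summit, and a whole TATCGATA began 3 bp downstream of the TSS, 45 bases after the summit. At rhea a TATCGATA began 27 bp upstream of the TSS, 60 bases after the summit. At Vinc it began 153 bp upstream of the TSS. With rhea added, 5 of the 6 called genes held the core within 100 bp, against 56.3%, and mys did not. Of the 4 genes not called, stck held the letters, with a whole TATCGATA 27 bp upstream of its TSS and a second core, A8T, 70 bp upstream of it.

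Other promoter and enhancer letters were searched in the same windows. On either strand within 50 bp, GGTCACAC, GAGAG (the GAGA factor motif) and CAGCTG (an E-box) were found at 0 of the 6 called genes. They were found at 3.58%, 8.23% and 9.16% of all conservative promoter summits. Of the 4 genes not called, parvin held GAGAG, 42 bases after its summit. A search out to 100 bp for these 3 motifs was added after the sequences had been seen. It found GGTCACAC at mys and rhea, 2 of 6 against 6.37%. The match at rhea began 5 bp upstream of the TSS and that at mys 57 bp upstream. The match at mys began 44 bases after the summit and ran past the edge of the 50 bp window. Among the called genes the wider search found GAGAG at Fit1, against 17.6%, and CAGCTG at none, against 15.4%. Among the genes not called it found only the GAGAG at parvin. A match is only a match of letters.

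The 101 bp windows at the called summits ranged from 26.7% G and C at rhea and 32.7% at Fit2 to 52.5% at Vinc. The uncalled genes ranged from 36.6% at if to 57.4% at parvin, so the ranges overlap. The median was 41.6% at all conservative promoter summits and 46.5% at the ranked ones outside.

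The other genes of integrin adhesion were described by 3 lists, 35 genes in all, of which 8 were called in the conservative list. Of the 35 genes, 33 had a ranked call at a TSS, and the share of all such genes that was called was 22.9%. None of the 4 other integrin subunit genes was called there, and 3 of the 4 had a ranked call at a TSS in that list. The alpha subunit gene scb was called in replicate 1 alone, with a signal of 63.2 and a score of 996, and its score in the conservative ranked list was 75. Like mew and if, these genes had no conservative peak. With so few genes and a share of 22.9% over all genes, nothing is read from this.

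Among 18 adaptor and signalling genes, 17 had a ranked call at a TSS and 7 were called, against 22.9% of all such genes. These genes were listed with earlier results known, so nothing is read from the count. C3G, an exchange factor gene for Rap1, had 393 in the conservative list, 194 in replicate 1 and 186 in replicate 2. Pax, the paxillin gene, had 369, 197 and 166 in the same lists, so C3G was the higher of the pair in the conservative list and replicate 2, and Pax in replicate 1. The kinase gene Pak had 203, 127 and 66.3, and the small GTPase gene Rap1 had 201, 127 and 66.5. These 4 genes were called in all 4 lists, and C3G and Pax lay above mys in each. Src64B, a kinase gene of the Src family, had 123 in the conservative list, 49.7 in replicate 1, where it was not called, and 52.7 in replicate 2. The Rac exchange factor gene mbc had 94.9 in the conservative list, 55.1 in replicate 1 and 42.6 in replicate 2, where it was not called. The tensin gene by had 84.8, 46.9 and 38.8 in the same lists and was called in neither replicate. The summits of C3G, Pax, Src64B and mbc also lay within 500 bp of TSSs of other genes.

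Among 13 genes for matrix ligands and partners, all with a ranked call at a TSS, only LanB1 was called, against 22.9% of all such genes. LanB1 is the gene of the laminin beta chain. It had 138 in the conservative list and 80.5 in replicate 1, and 46.8 in replicate 2, where it was not called. The genes of the laminin alpha and gamma chains, LanA and LanB2, had ranked signals of 55.2 and 54.4 in the conservative list. CAP, Zasp66 and Mp were called in the second list and not in the conservative one. CAP had a score of 830 in the ranked list behind the conservative one, equal to the lowest in the thresholded list. Scores are whole numbers, so calls with slightly different IDRs can share a score. The highest IDR in the conservative thresholded list was 0.01. Why CAP was left out was not given in the sources used here.

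**Figure D4:**
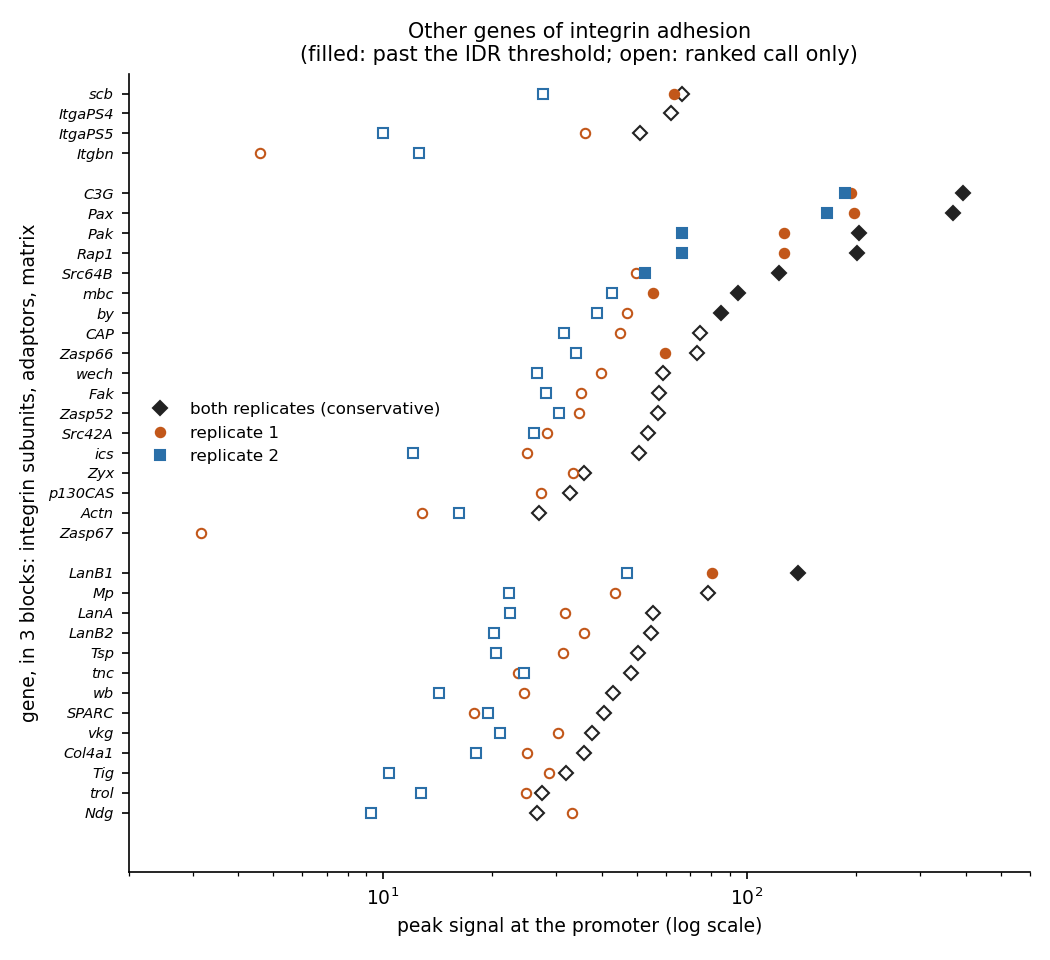
Peak signal (log scale) at the promoters of 35 other integrin adhesion genes in 3 blocks, integrin subunits, adaptors and matrix genes, in the conservative list (diamonds), replicate 1 (circles) and replicate 2 (squares). Filled symbols passed the IDR threshold and a missing symbol means no ranked call. In the conservative list C3G at 393 and Pax at 369 are the highest, both under Fit2 at 872.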

How the data were processed

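The authors deposited peak lists placed on dm6, per the labels and a listing that came with the samples. They gave a thresholded and a ranked list for each replicate, and a conservative and a second thresholded list from both replicates together, each with its ranked list. Aligner and caller were not given in the sources used here. Scores in the authors' lists are scaled IDR values in whole numbers, and are higher for more reproducible peaks. The deposited signal was taken as the caller's value for each peak, and how it relates to a control is not stated. The deposited ranked lists also hold the −log10 of the IDR, which was turned back into an IDR here. The summit was taken from the deposited offset within each peak. A further 16 columns of per-sample values in the ranked lists from both replicates were left unused.

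Peaks on the main arms were kept, and none reached beyond the end of its arm. Each summit was assigned to every protein-coding gene with a TSS within 500 bp, from the Ensembl 115 annotation. Where a gene had several summits, the one with the highest signal was used, thresholded ones first. Sequences came from the Release 6 genome, and both strands were searched within 50 bp of each summit. The steps were run with Python 3.11.15 and pandas 2.3.3 and checked on simulated peaks. Shares have 95% Wilson intervals.

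The members and the lists of other adhesion genes were chosen with earlier results of these data known. All members are named, and other adhesion genes are named where they were called in the conservative list. The integrin gene scb, the laminin genes LanA and LanB2, and CAP, Zasp66 and Mp were named after their values were seen. The genes next to Fit2 were named as the nearest 2 promoter peaks on each side of it in signal. No test was run, since there is 1 group and the set was chosen on its values. The alternatives were other lists, each replicate alone, other promoter windows and assignments, stricter and looser thresholds, and other motif windows.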

Additional observations from a re-analysis of the deposited data

How the results depend on the processing

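Fit2 and mys kept their peak under all 10 alternatives to the conservative list and its 500 bp window, rhea under 9, Ilk under 8, Vinc under 6 and Fit1 under 5. The genes mew, if and parvin gained none, and stck was called under 2, a window of 1000 bp and an IDR of at most 0.05. The IDR setting was added after the data were seen. The count of members, 6, was 3 among the 1000 strongest peaks and 2 among the 500 strongest, and 4 with either replicate alone. It was 5 in the second list, 7 with 1000 bp or an IDR of at most 0.05, and 6 with 250 bp, the nearest TSS only or the whole peak interval. The count of other adhesion genes, 8, was 4 and 2 among the same peaks and ran from 5 to 8 when either replicate was left out. It was 11 in the second list, 12 at an IDR of at most 0.05, 9 with a window of 1000 bp, 7 with the nearest TSS only, and 8 with 250 bp or the whole peak interval. The position of Fit2, 99.9 as a percentile of all peaks by signal, was 99.9 in the second list and ran from 99.7 to 99.8 when a replicate was left out. The share of all genes, 22.9%, was 24.8% in the second list, 16.7% to 21.6% when a replicate was left out, 24.7% with 250 bp, 18.2% with the nearest TSS only, 10.8% and 5.58% for the 1000 and 500 strongest peaks, 30.8% at an IDR of at most 0.05 and 19.4% of all protein-coding genes. Called summits with a DRE numbered 1 of 6, or 3 of 6 within 100 bp, 4 of 6 with ATCGAT and 1 of 5 in the second list. They numbered 0 of 4 without replicate 1 and 2 of 4 without replicate 2. The 2 were Fit2 and rhea, while Vinc was called in neither replicate. In replicate 1 the summits of Fit2 and rhea lay 38 and 69 bp upstream of the TSS, against 42 and 87 bp in the conservative list. Their TATCGATA thus fell inside the 50 bp window in replicate 1 only. The share of all promoter summits with a DRE, 22.4%, was 28.9% within 100 bp, 45.6% with ATCGAT and 20.1% in the second list. It was 23.6% without replicate 1 and 23.0% without replicate 2. Apart from the peaks and letters admitted and the summit positions at Fit2 and rhea, the cause of these moves was not tested. No paired analysis was possible because there is only 1 group.

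Depth and a control limit every value, since the lists give neither reads nor input. With 2 replicates the SD is a rough figure.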
